A study of Mus musculus with 6 samples.

Results

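Cathepsins are a mixed group of proteases named for their home in the lysosome. The genes followed here were listed by name, Ctsa, Ctsb, Ctsc, Ctsd, Ctsf, Ctsh, Ctsl, Ctss, Ctsw and Ctsz, and all 10 had a row among the 16281 genes of the deposited table. The RNA came from spleen CD8+ T cells of C57BL/6 mice with the OT1 transgene Tg(TcraTcrb)1100Mjb, which gives nearly every CD8+ T cell a receptor for one ovalbumin peptide. Both groups carried the transgene, and both were activated for 48 h with anti-CD3 (2 μg/ml), anti-CD28 (2 μg/ml) and IL-2 (20 ng/ml) and then kept in IL-2 for 3 days. One group received GSK2879552 (GSK, 0.5 μM), an irreversible inhibitor of the histone demethylase LSD1, throughout both phases, and the other received vehicle (Veh), with 3 cultures in each. The receptor is transgenic, the cells were studied only after culture, and LSD1 was inhibited by a single compound at a single dose.

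Most cathepsins are made as inactive precursors that ripen in the acid of the lysosome. There, cysteine, aspartic and serine types break down proteins from within the cell and from outside. In cytotoxic T cells the secretory granule is a lysosome-related compartment, and cathepsin C removes the short propeptide that keeps granzymes inactive. Cystatins and the mouse CTLA-2 proteins bind and block cysteine cathepsins.

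The total counts lay between 18288447 and 18918811 in Veh and between 19149909 and 19846720 in GSK. Replicates differed by more than counting error in every pair (chi-square divided by its degrees of freedom, 4.07 to 9.38). The groups were compared by the quasi-likelihood test of edgeR, and p-values were adjusted by Benjamini-Hochberg over the 11698 genes that passed the filter on low counts. A gene is said to rise or fall at an adjusted p under 0.05, and to be called when it also passed a 1.5-fold change. Values are counts scaled to a fixed library total (CPM), after scaling for library composition. With 3 cultures in each group, an exact two-sided permutation test of one gene has 0.1 as its smallest p, and every p given here comes from the fit over all genes. Summed CPM of 8 T cell markers ran from 4237 to 4324 in Veh and from 4334 to 4465 in GSK, although 3 of them (Cd3d, Cd3e and Cd3g) fell and 2 (Thy1 and Lck) rose. The RNA of Kdm1a, which encodes LSD1, was 92.8 ± 5.45 CPM (SD, n = 3) in Veh and 87.1 ± 3.54 in GSK, and the difference did not pass (adjusted p = 0.22 from edgeR).

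Of the 10 cathepsin genes, 9 were tested. Ctsz and Ctsw rose and Ctsl and Ctsf fell, and 5 did not pass. Over all genes tested, 16.6% rose and 15.5% fell, or 32.1% in either direction, so that 4 of 9 is not far from the background. Ctsz (up), Ctsl and Ctsf (both down) were also called, against a background of 2.22% called up and 4.09% called down, or 6.32% in all. In 5 of the 9 the cultures of the groups did not overlap, which held for 46.7% of all genes tested. The median log2 fold change of the 9 was -0.097, and that of all genes tested -0.0039. In these bulk samples, fewer cells that express a gene and less of its RNA per cell cannot be told apart.

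The members fell into tiers of abundance, compared here as CPM per kilobase of the gene's main GENCODE transcript, so that long and short RNAs share one scale. Ctsd, the aspartic protease of the lysosome, stood highest with 264 ± 7.95 CPM per kb (SD, n = 3) in Veh and 284 ± 16.3 in GSK, above 98.7% of all genes with a length in both groups. Ctsw, a cysteine cathepsin found mainly in cytotoxic T and NK cells, came next with 176 ± 6.81 and 194 ± 6.40 CPM per kb. A middle tier in Veh held Ctss (42.7 ± 3.95 CPM per kb), Ctsz (41.8 ± 3.00), Ctsc (40.9 ± 1.95) and Ctsa (38.6 ± 2.49), and each neighbour in that order overlapped the next. Ctsb lay just under them at 29.5 ± 0.567 CPM per kb in Veh. In GSK Ctsz left this tier for 73.7 ± 5.20 CPM per kb, above every culture of Ctss, while Ctsc and Ctsa still overlapped. Ctsl and Ctsf formed the low tier, at 0.794 ± 0.168 and 0.711 ± 0.0288 CPM per kb in Veh, and did not differ from each other beyond their spread in either group. The ratio of Ctsb to Ctsl was 37.2 in Veh and 61.8 in GSK. The lower places depend on the length used. Per kb of all annotated exons in place of one transcript, Ctsc moved from place 5 to 7 with 17.5 CPM per kb in Veh, Ctsa stood at 29.9, below Ctss (42.6) and Ctsz (41.8), and Ctsl (0.755) was above Ctsf (0.279). Ctsd, Ctsw, Ctss and Ctsz kept their places.

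**Figure D1:**
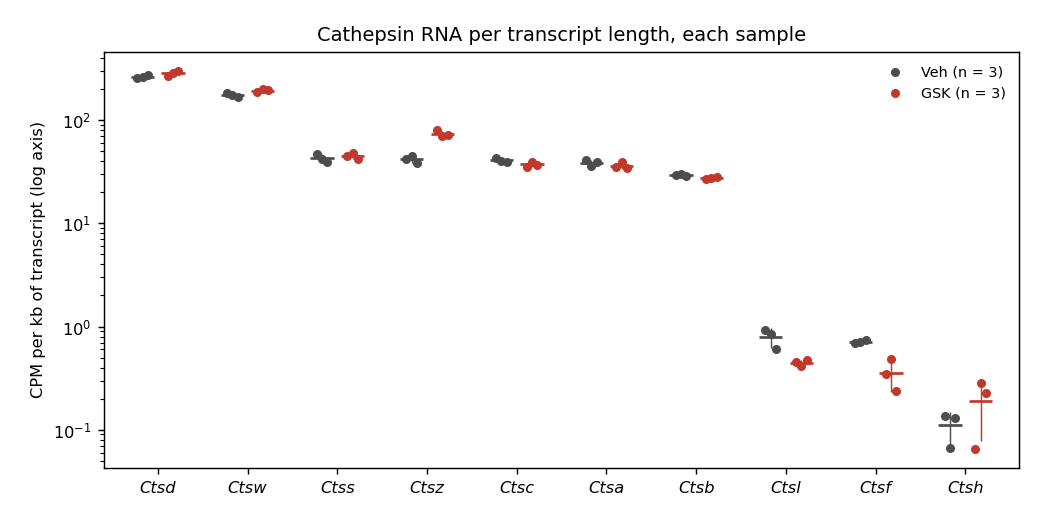
RNA of the 10 cathepsin genes in CPM per kb of transcript, on a log axis, for each of 3 Veh and 3 GSK cultures. Horizontal lines are group means and vertical lines the SD. Ctsd and Ctsw lie at the top, Ctsz in GSK stands above the middle tier, and Ctsl, Ctsf and Ctsh lie far below the rest.

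Ctsz encodes cathepsin Z, a cysteine carboxypeptidase also called cathepsin X, which trims single residues from the end of proteins. Its RNA was 60.7, 64.3 and 55.7 CPM in the Veh cultures and 114.9, 101.4 and 102.4 CPM in the GSK cultures. Every GSK culture lay well above every Veh culture. The log2 fold change was 0.82 (standard error 0.065, 95% interval 0.68 to 0.96, adjusted p = 3.6e-06 from edgeR), a 1.76-fold rise, and by p the gene took place 38 of the 11698 tested. Leaving out single cultures gave values from 0.76 to 0.87, and Ctsz was the one member that also passed a test against a 1.5-fold change. Ctsz made up 4.67%, 5.03% and 4.34% of the summed cathepsin CPM in Veh and 8.68%, 7.28% and 7.34% in GSK.

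Ctsz (Entrez gene 64138) lies on the minus strand of chromosome 2 of GRCm38, from 174427494 to 174439039, in 6 exons. Its far end overlaps that of Nelfcd, a subunit of a transcription pausing complex on the other strand, by 12 bases. Nelfcd had 65.4 ± 2.27 CPM in Veh and 69.8 ± 3.26 in GSK, with a log2 fold change of 0.093 that did not pass (adjusted p = 0.22). The promoter window of Ctsz, the gene that changed most clearly, is given here from RefSeq's GRCm38.p6 sequence, from 250 bases before to 50 bases after the start, with matches to the GC box (GGGCGG on either strand) in capitals.
Ctsz, chr2:174438990-174439289, minus strand: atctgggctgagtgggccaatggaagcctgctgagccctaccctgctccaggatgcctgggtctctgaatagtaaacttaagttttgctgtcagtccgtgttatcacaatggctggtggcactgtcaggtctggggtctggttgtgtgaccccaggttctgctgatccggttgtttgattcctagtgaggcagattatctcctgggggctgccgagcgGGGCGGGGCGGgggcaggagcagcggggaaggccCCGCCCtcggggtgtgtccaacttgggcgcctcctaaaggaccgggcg

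The capitals mark 2 overlapping copies of GGGCGG, at 32 and 27 bases before the start, and one reverse copy at position 3 after it. The window holds no CACGTG, the E-box core, which stands inside the element that the lysosomal regulators TFEB and TFE3 bind. A GC box was found in 35.7% of all 32851 promoter windows of that length.

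**Figure D2:**
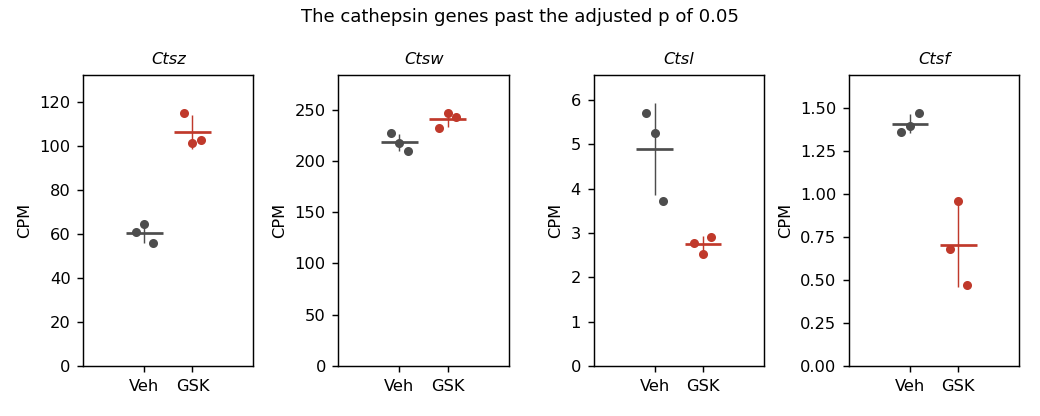
CPM of the 4 cathepsin genes past an adjusted p of 0.05, each on its own linear axis from 0, for 3 Veh and 3 GSK cultures. Lines are the mean and SD. Ctsz and Ctsw were higher and Ctsl and Ctsf lower in every GSK culture than in any Veh culture, and the gap was narrow for Ctsw.

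Ctsw encodes cathepsin W, or lymphopain, which is stored in cytotoxic lymphocytes. Its RNA was 226.9, 217.7 and 210.0 CPM in Veh and 231.6, 246.8 and 243.1 in GSK. The highest Veh culture and the lowest GSK culture lay close together. The log2 fold change was 0.14 (standard error 0.045, 95% interval 0.043 to 0.24, adjusted p = 0.030 from edgeR), far below the 1.5-fold change. Without Veh replicate 2 or 3, or without GSK replicate 2 or 3, the adjusted p lay between 0.058 and 0.13, so this rise rests on each of those cultures. Ctsw lies on chromosome 19 from 5465043 to 5468628 and shares 10 bases with Fibp on the other strand, whose log2 fold change of -0.18 did not pass (adjusted p = 0.084).

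Ctsl encodes cathepsin L, a broad endopeptidase of lysosomes. Its RNA was 5.71, 5.26 and 3.73 CPM in Veh and 2.78, 2.53 and 2.92 in GSK, from 71 to 105 counts in a Veh culture and from 50 to 56 in a GSK culture. All 3 GSK cultures lay below the lowest Veh culture. The log2 fold change was -0.83 (standard error 0.21, 95% interval -1.28 to -0.39, adjusted p = 0.0082 from edgeR). Over the alternatives that test against no change, the adjusted p ran from 0.0027 to 0.043.

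Ctsf encodes cathepsin F, another cysteine endopeptidase. It had 25, 26 and 28 counts in Veh and 13, 19 and 9 in GSK, or 1.41 ± 0.0571 and 0.704 ± 0.247 CPM (SD, n = 3). The Veh cultures were nearly equal and the GSK cultures spread, all below them. The log2 fold change was -0.99 (standard error 0.34, 95% interval -1.73 to -0.25, adjusted p = 0.041 from edgeR). The call was lost with DESeq2 (adjusted p = 0.12), without a filter on low counts (0.058) and without any one culture other than GSK replicate 2 (from 0.088 to 0.15), and over the alternatives it ran from 0.025 to 0.15.

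Ctsl lies on the minus strand of chromosome 13 from 64361890 to 64370772 and Ctsf on the plus strand of chromosome 19 from 4855165 to 4860918. RefSeq places no other gene over either, but GENCODE annotates Gm47123 on the other strand of Ctsl, with 1742 exonic bases in common, and the processed pseudogene Gm49230 on the same strand, with 395. These overlaps are with the GENCODE model of Ctsl, which reaches beyond the RefSeq span. Gm49230, from 64361343 to 64361737, lies outside that span, and Gm47123, from 64361052 to 64363022, only partly within it. Under the GENCODE model, reads in Gm49230 cannot be assigned with certainty by any strand setting. Which model was counted, and whether by strand, is not given in the sources used here. Under that model, reads of such a partner therefore cannot be told apart from those of Ctsl. The promoter windows of these 2 genes that fell are shown from the same RefSeq build, with CACGTG and the GC box in capitals.
Ctsl, chr13:64370471-64370770, minus strand: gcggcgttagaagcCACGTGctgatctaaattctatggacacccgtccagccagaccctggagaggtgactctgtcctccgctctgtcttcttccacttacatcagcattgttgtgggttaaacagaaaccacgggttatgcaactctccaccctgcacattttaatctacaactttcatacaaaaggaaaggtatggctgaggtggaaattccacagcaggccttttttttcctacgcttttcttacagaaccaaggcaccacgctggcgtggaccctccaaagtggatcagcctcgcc
Ctsf, chr19:4854915-4855214, plus strand: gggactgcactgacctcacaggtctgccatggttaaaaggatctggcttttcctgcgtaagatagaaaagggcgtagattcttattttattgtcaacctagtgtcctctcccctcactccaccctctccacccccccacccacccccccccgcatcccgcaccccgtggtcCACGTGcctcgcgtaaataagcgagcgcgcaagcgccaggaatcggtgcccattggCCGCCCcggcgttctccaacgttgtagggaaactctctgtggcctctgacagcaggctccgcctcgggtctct

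Both windows hold one CACGTG, which reads the same on either strand, at 236 bases before the start in Ctsl and 79 before it in Ctsf. The window of Ctsl follows a start site downstream of the outermost one, so that it lies wholly inside the gene as annotated, its CACGTG included. The GC box of Ctsf, in its reverse form, stands 23 bases before the start. Of the 7 members with a window in the table, 4 held CACGTG (Ctsa, Ctsd, Ctsf and Ctsl), or 4 of 8 windows since Ctsa has 2 start sites, against 7.15% of all windows. The palindromic CLEAR element is the longer motif of these regulators that contains CACGTG. Its exact form was in 0 of the 8 windows and in 0.326% of all windows. Copies that differ from that form in any base were not searched for, so the 0 does not show that such sites are absent. Ctsd and Ctsa, at high and middle levels, did not pass the test, so CACGTG was found both in genes that changed and in genes that did not pass. Ctsb, Ctsh and Ctsw have no window in the table.

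Markers of other cell types were counted in the same cultures. Of 12 macrophage and monocyte markers, 10 had at most 10 counts in every culture, and none was at 0 in all 6. Their summed level was 6.42, 4.40 and 3.63 CPM in the Veh cultures and 2.21, 3.49 and 1.88 CPM in the GSK cultures, so it was lower in GSK without overlap. Lyz2 and Itgam, which held most of it, did not pass (adjusted p = 0.29 and 0.073). Itgax, a dendritic cell marker that activated T cells also express, fell by 1.37 on the log2 scale (adjusted p = 0.0023 from edgeR), while the 5 dendritic cell markers with a row together had 14.6 to 17.1 CPM in Veh and 14.8 to 18.1 CPM in GSK. The part of such cells in the lower Ctsl and Ctsf was not tested. The 8 B cell markers summed to between 5.83 and 8.16 CPM in Veh and between 5.72 and 6.88 CPM in GSK. The 4 markers of CD4 and NK cells summed to between 41.6 and 52.7 CPM in Veh and between 37.9 and 45.1 in GSK, most of it from Zbtb7b, while Cd4 reached at most 1.79 CPM, Klrb1c at most 3.67, and Ncr1 was at 0 in every culture but GSK replicate 1. None of the 3 that were tested passed.

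The remaining members did not pass the test. Ctsd had 545.9, 556.9 and 579.1 CPM in Veh and 569.4, 603.2 and 638.7 in GSK, and the groups overlapped (log2 fold change 0.11, 95% interval 0.011 to 0.20, adjusted p = 0.082). GENCODE annotates Gm49369 on the same strand of Ctsd with 808 exonic bases in common, so reads there are uncertain. Ctsc, the dipeptidyl peptidase that activates granzymes, had 107.5, 99.6 and 98.6 CPM in Veh and 88.5, 98.9 and 91.8 in GSK. GSK replicate 2 reached the Veh range and the other two GSK cultures lay below it (log2 fold change -0.13, 95% interval -0.25 to -0.011, adjusted p = 0.088). Without that culture the adjusted p was 0.019, within a range of 0.019 to 0.31 over the alternatives.

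Ctsb, a cysteine protease with both endopeptidase and carboxypeptidase activity, had 139.2, 143.1 and 137.9 CPM in Veh and 127.1, 130.8 and 133.6 in GSK. The groups did not overlap, but the difference was small (log2 fold change -0.10, 95% interval -0.20 to -0.0079, adjusted p = 0.090 from edgeR). The last 774 bases of Ctsb are shared with Fdft1, an enzyme of cholesterol synthesis on the other strand, whose log2 fold change was 0.069 (adjusted p = 0.32). Ctsa, the serine carboxypeptidase that protects the sialidase NEU1 and β-galactosidase in a complex, had 148.7, 130.9 and 142.9 CPM in Veh and 127.2, 142.3 and 125.5 in GSK. Again GSK replicate 2 lay within the Veh range (log2 fold change -0.097, 95% interval -0.23 to 0.034, adjusted p = 0.24, and 0.037 without that culture, within a range of 0.037 to 0.58). Ctsa overlaps Neurl2 and Pltp on the other strand.

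Its partners did not pass either. Neu1 had 26.8 ± 1.09 CPM in Veh and 24.9 ± 0.809 in GSK (log2 fold change -0.11, adjusted p = 0.29 from edgeR) and Glb1, for β-galactosidase, 45.5 CPM in Veh and 46.3 in GSK on average (log2 fold change 0.026, adjusted p = 0.77).

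Ctss, the protease known for cutting the class II chaperone CD74 in antigen-presenting cells, had 63.4, 57.3 and 52.8 CPM in Veh and 61.4, 65.0 and 56.9 in GSK. The groups overlapped broadly (log2 fold change 0.080, 95% interval -0.078 to 0.24, adjusted p = 0.44). Ctsh, an aminopeptidase, had 4, 2 and 4 counts in Veh and 2, 9 and 7 in GSK, too few to be tested. At this depth no difference in Ctsh was detectable.

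Summed over the 10 members, cathepsin RNA was 1300.0, 1277 and 1282 CPM in Veh and 1324, 1392 and 1396 in GSK. Ctsd held between 42.0% and 45.8% of this sum in every culture, and Ctsl and Ctsf together under 1% of it. Ctsz held a larger share in every GSK culture than in any Veh culture, as given above.

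**Figure D3:**
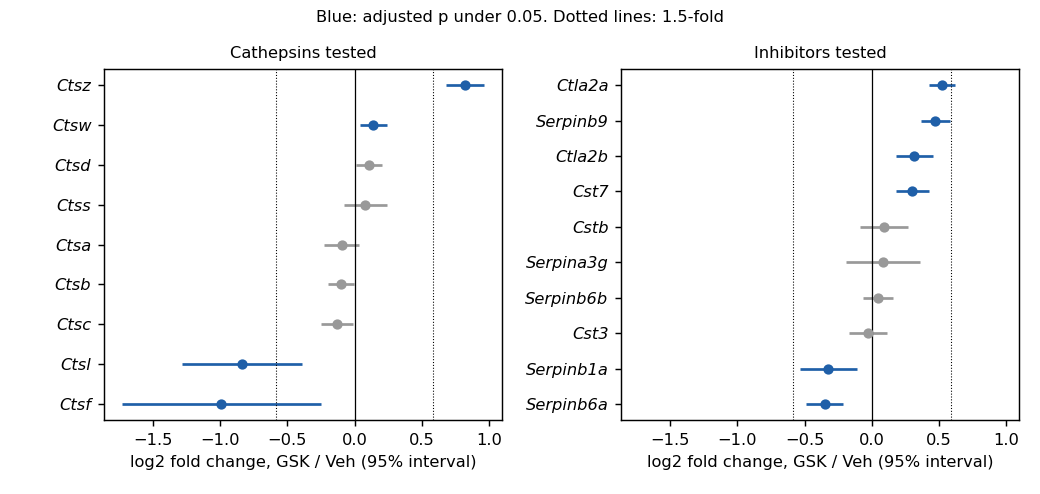
Log2 fold changes of GSK over Veh with 95% intervals from edgeR for the 9 tested cathepsin genes (left) and the 10 tested inhibitor genes (right). Blue marks an adjusted p under 0.05 and the dotted lines a 1.5-fold change. Among cathepsins Ctsz, Ctsl and Ctsf lie beyond the dotted lines, and among inhibitors none does.

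Of 15 other cathepsins and lysosomal peptidases, 6 had a row in the table and 4 were tested. Ctse and Tpp1 fell and Lgmn and Ctso did not pass. That is 50% past the threshold, against 32.1% of all genes tested, and no list was tested as a set. Ctse, an aspartic cathepsin of endosomes, was as abundant as many of the members, with 108.9, 101.7 and 108.2 CPM in Veh and 85.8, 97.5 and 80.9 in GSK. All GSK cultures lay below the Veh range (log2 fold change -0.27, standard error 0.065, adjusted p = 0.0073 from edgeR). Tpp1, a serine tripeptidyl peptidase, went from 62.7 ± 1.63 to 53.5 ± 0.750 CPM (SD, n = 3; log2 fold change -0.23, adjusted p = 0.0053). Lgmn, the asparaginyl endopeptidase that processes several cathepsins, was low at 2.44 ± 0.749 CPM in Veh and 2.88 ± 0.549 in GSK (adjusted p = 0.52). Ctso had a log2 fold change of 0.035 (adjusted p = 0.84). Ctsk, the neighbour of Ctss on chromosome 3, had between 1 and 6 counts in any culture.

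Of 16 inhibitor genes, 12 had a row and 10 were tested. Ctla2a, Ctla2b, Cst7 and Serpinb9 rose, Serpinb6a and Serpinb1a fell and 4 did not pass. The share that passed was 60%, against 32.1% of all genes tested. The median log2 fold change was 0.086. Ctla2a, whose product resembles a cathepsin propeptide and blocks cathepsin L-like enzymes, had 283.1, 272.0 and 272.0 CPM in Veh and 380.7, 419.2 and 384.6 in GSK. Every GSK culture lay far above the Veh cultures, which differed little (log2 fold change 0.52, standard error 0.045, adjusted p = 7.3e-06 from edgeR). Ctla2b, its close relative, rose from 79.7 ± 5.54 to 99.1 ± 6.77 CPM (log2 fold change 0.31, adjusted p = 0.0024). The 2 genes share 466 stretches of 31 bases, 20.7% of those in Ctla2a and 26.3% of those in Ctla2b. Other annotated genes share more on the same strand. Gm49391 holds 58.8% of the stretches of Ctla2b and 22.8% of those of Ctla2a, and Gm49392 holds 20.3% of those of Ctla2b. Reads of both genes are therefore uncertain.

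Cst7, or cystatin F, is made by cytotoxic cells and inhibits cathepsin C and other cysteine cathepsins of the granule. It had 101.4, 100.7 and 89.4 CPM in Veh and 114.8, 125.0 and 119.3 in GSK, with no overlap (log2 fold change 0.30, standard error 0.057, adjusted p = 0.0017 from edgeR). The general cystatins Cst3 and Cstb had log2 fold changes of -0.028 and 0.089, neither of which passed (adjusted p = 0.77 and 0.43). Serpina3g and Serpinb6b had log2 fold changes of 0.082 and 0.043, which did not pass either (adjusted p = 0.63 and 0.56 from edgeR). The serpins that passed act mainly on serine proteases. Serpinb9, which blocks granzyme B, rose by 0.47 on the log2 scale (adjusted p = 2.7e-05), while Serpinb6a fell by 0.35 (adjusted p = 0.0014) and Serpinb1a fell by 0.32 (adjusted p = 0.023).

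Cytotoxic granule genes moved in both directions. Of 13, 11 were tested, Prf1, Gzmb and Nkg7 rose, Gzmk and Srgn fell, and 6 did not pass. The share that passed was 45.5%, against 32.1% of all genes tested. Prf1, which encodes the pore former perforin, had 39.8, 42.5 and 44.6 CPM in Veh and 87.7, 85.3 and 98.2 in GSK (log2 fold change 1.09, adjusted p = 3.9e-07 from edgeR). Nkg7, a granule membrane protein, rose from 421 ± 5.40 to 582 ± 31.2 CPM (SD, n = 3; log2 fold change 0.47, adjusted p = 1.0e-05). Gzmb, a granzyme that cathepsin C activates, rose by 0.62 (standard error 0.12, adjusted p = 0.019), and the adjusted p lay between 0.053 and 0.067 without Veh replicate 1, Veh replicate 3 or GSK replicate 1. Gzmk, another granzyme, fell by 0.85 (standard error 0.12, adjusted p = 2.7e-04), and Srgn, the proteoglycan that packs granzymes, fell by 0.25 (adjusted p = 0.0026). Gzma was lower on average, but the groups overlapped and it did not pass (254 ± 74.6 CPM in Veh and 141 ± 47.9 in GSK, adjusted p = 0.15, with a range of 0.0039 to 0.32 over the alternatives). Gzmc had 15.2, 45.3 and 42.4 CPM in Veh and 28.2, 21.9 and 26.3 in GSK, and its log2 fold change of -0.43 did not pass (adjusted p = 0.54). Veh replicate 1 lay below every other culture, and without it the log2 fold change of Gzmc was -0.78 (adjusted p = 3.4e-04).

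All 40 lysosomal hydrolases and their cofactors were tested, of which 4 rose and 11 fell, with a median log2 fold change of -0.024. The share that passed, 37.5%, was near the 32.1% of all genes tested, where 16.6% rose and 15.5% fell. The largest fall by p was Smpd1, acid sphingomyelinase, from 86.7 ± 3.98 to 60.6 ± 6.03 CPM (SD, n = 3; log2 fold change -0.52, adjusted p = 2.1e-04 from edgeR). Ppt2, a thioesterase, fell by 0.90 (adjusted p = 0.0017) and was the one hydrolase called. Arsb and Gusb, which act on glycosaminoglycans, rose by 0.36 and 0.28 on the log2 scale (adjusted p = 5.6e-04 and 0.0024 from edgeR). Scpep1, a serine carboxypeptidase in the same family as Ctsa, rose by 0.13 (adjusted p = 0.037).

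Of 24 tested genes of the lysosomal membrane 3 rose (Slc11a2, Npc1 and Mcoln2) and 3 fell (Slc38a9 and Abcb9 among them), with a median log2 fold change of -0.046. The share that passed, 25%, lay below the 32.1% of all genes tested. Slc38a9, an amino acid sensor of the lysosome, fell by 0.51 (adjusted p = 0.0011 from edgeR). Lamp1, a main membrane glycoprotein, had 202 ± 2.47 CPM in Veh and 202 ± 1.42 in GSK, and the 95% interval of its log2 fold change ran from -0.087 to 0.084 (adjusted p = 0.98). Lamp2 had a log2 fold change of 0.099 (adjusted p = 0.18).

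Of 18 tested subunits of the proton pump that acidifies lysosomes, Atp6v0a2, Atp6v1h, Atp6v0e and Atp6v0a1 rose and Atp6v1g2 and Tcirg1 fell, with a median log2 fold change of 0.083. Atp6v0a2 rose by 0.19 (adjusted p = 0.0039 from edgeR) and Atp6v1g2 fell by 0.56 (adjusted p = 0.019). Of 28 tested sorting and regulator genes 6 rose and 2 fell, with a median of 0.076. The shares that passed, 33.3% of pump subunits and 28.6% of sorting genes, were near the 32.1% of all genes tested. Ap1g1, an adaptor that sorts cargo towards lysosomes, rose by 0.16 (adjusted p = 0.010) and Stx11, which acts in granule release, by 0.26 (adjusted p = 0.011). Tfeb and Tfe3, the transcription factors that switch on lysosomal genes, had log2 fold changes of -0.086 and 0.077, neither of which passed (adjusted p = 0.54 and 0.41).

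**Figure D4:**
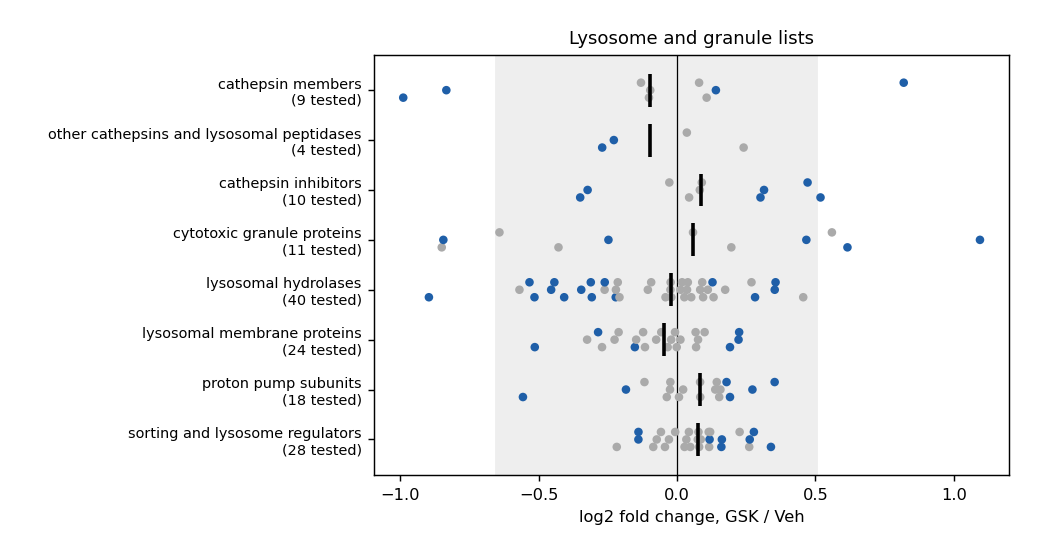
Log2 fold changes of GSK over Veh for the tested genes of 8 lists, with blue for an adjusted p under 0.05, grey points for the rest and a black bar at each median. The grey band spans the central range of all genes tested, from -0.65 (percentile 5) to 0.50 (percentile 95). Ctsz lies to the right of the band and Ctsl and Ctsf to its left, while hydrolases and pump subunits lie mostly inside it.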

How the data were processed

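Stranded libraries were made from polyadenylated RNA. The authors trimmed reads with Trimmomatic, mapped them to GRCm38 with HISAT2 (2.1.0) and counted reads per gene with HTSeq (0.11.2). The deposited values are these whole counts per gene, not normalized. The annotation release and the strand setting of the counting are not given in the sources used here.

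From the counts, GSK and Veh were compared in R (4.3.3) with edgeR (4.0.16), using filterByExpr, TMM scaling, the robust quasi-likelihood test and Benjamini-Hochberg adjustment over all tested genes. Genes past an adjusted p of 0.05 rose or fell, and those also past a 1.5-fold change were called. Standard errors were derived from the test statistic, and intervals are unadjusted at 95%. DESeq2 (1.42.0) was an alternative, besides other filters, scalings, the replicate block and leaving out each culture. The procedure was also run on simulated independent counts with true changes of at least 1.5-fold, which cannot check pairing or smaller changes. CPM were divided by the longest principal transcript in GENCODE M21 for levels per kb, and loci and promoter windows came from RefSeq tables of GRCm38.p6, matched by Entrez identifier. The totals of 18288447 to 19846720 counts set the precision, and p-values measure the spread between these cultures. The paper describes the cells as isolated from 3 separate OT1 mice, and its figure legend gives 3 mice per group. Cultures of the 2 groups may therefore share mice, while the main fit took them as independent. Whether same-numbered cultures of the 2 groups share a mouse is not given in the sources used here.

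The members and gene lists were chosen with earlier results of these data known. The genes named are all 10 members, up to 4 genes per list and direction with the smallest adjusted p, a fixed set of lysosome and granule genes, and genes that overlap or neighbour a member. Lyz2, Itgam, Batf3, Cst3, Cstb, Serpina3g and Serpinb6b were named after their values were seen. Some genes that the rule names are not reported here. Of the annotation columns of the table, only the Entrez identifier was used.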

Additional observations from a re-analysis of the deposited data

How the results depend on the processing

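Of the members that passed, Ctsz and Ctsl kept their direction and their side of the threshold under every alternative that tests against no change. Ctsd and Ctss, which did not pass, kept theirs too. Their adjusted p ran from 0.051 to 0.31 and from 0.16 to 0.89 over these edgeR and DESeq2 fits. With the replicate block 1 member rose and 1 fell, since Ctsw (adjusted p = 0.067 from edgeR) and Ctsf (0.064) did not pass, 1 membrane gene rose, and 3 sorting genes rose and 0 fell. Gzma passed with the block (log2 fold change -0.86, adjusted p = 0.0039). Both groups use replicate numbers 1 to 3. The deviations of same-numbered cultures from their group means correlated across genes at -0.052, -0.081 and 0.16. With 3 cultures in each group these values cannot decide whether the cultures were paired, and the main fit used no pairing. With upper-quartile factors 1 member rose and 4 fell, as Ctsb and Ctsc then passed and Ctsw did not, and 1 membrane and 3 sorting genes rose. With DESeq2 1 member fell, and 3 sorting genes rose and 0 fell. Without a filter on low counts 1 member fell. The test against a 1.5-fold change called 69 genes up and 65 down, with 1 member (Ctsz) up and 0 down, 1 granule gene up and 0 down, and 0 in either direction among other peptidases, inhibitors, hydrolases, membrane proteins, pump subunits and sorting genes, as that test asks for more than a difference.

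With each culture left out in turn, between 224 and 291 genes were called up and between 403 and 547 down. Between 1 and 2 members rose, with 1 when Veh replicate 2 or 3 or GSK replicate 2 or 3 was left out. Between 1 and 4 members fell, with 4 without GSK replicate 2 and 1 without any other culture. Between 4 and 5 inhibitors rose and 1 to 3 fell, with 1 without Veh replicate 3, GSK replicate 1 or GSK replicate 3. Between 2 and 4 granule genes rose and 2 to 4 fell, with 4 without Veh replicate 1. Between 3 and 6 hydrolases rose and 8 to 11 fell. Between 0 and 3 membrane genes rose, with 0 without Veh replicate 2 or 3 and 1 without GSK replicate 1 or 2, and 2 to 4 fell. Between 3 and 6 pump subunits rose and 0 to 2 fell, with 0 without GSK replicate 3 and 1 without GSK replicate 1 or any Veh culture. Between 0 and 8 sorting genes rose, with 0 without GSK replicate 1, 2 without Veh replicate 3 and 3 without Veh replicate 1, Veh replicate 2 or GSK replicate 3. Between 0 and 1 sorting genes fell, against 2 in the main fit, with 0 without Veh replicate 3, GSK replicate 1 or GSK replicate 3 and 1 without the others. The cause of these shifts was not tested.

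Some genes near no change turned sign. With single cultures left out, the log2 fold change of Ctso ran from -0.11 to 0.12 and that of Lamp1 from -0.010 to 0.0069. Ctso was at -0.030 without Veh replicate 3 and -0.11 without GSK replicate 2, Glb1 at -0.0088 with upper-quartile factors, and Lamp1 at 0.0069 without Veh replicate 2 and 0.0024 without GSK replicate 1. Ctsh, at 2 to 9 counts, was too low to test, and Ctsf, at 9 to 28, is imprecise.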

Other observations

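Some of the nearest or overlapping protein-coding genes of the members are given here, and not all are reported. Of all genes tested, 32.1% passed in either direction, and an effect over a region was not tested. Prxl2c lies 49180 bases from Ctsl on chromosome 13 and also fell, with 38.8 ± 4.92 CPM in Veh against 23.5 ± 1.91 in GSK (SD, n = 3; log2 fold change -0.72, standard error 0.096, adjusted p = 2.0e-04 from edgeR). Cdk20, on the other side of Ctsl, had a log2 fold change of -0.14 and did not pass (adjusted p = 0.71). Pltp, a phospholipid transfer protein that overlaps Ctsa on the other strand, fell by 0.46 on the log2 scale (adjusted p = 0.025), from 8.01 ± 0.660 to 5.83 ± 0.586 CPM, while Ctsa itself did not pass. The muscle gene Actn3, 298 bases from Ctsf, had 1.11 ± 0.147 CPM in Veh and 1.71 ± 0.193 in GSK, and its log2 fold change of 0.62 did not pass (adjusted p = 0.11).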
